A study of Drosophila melanogaster with 12 samples.

Results

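The comparison examined here is the knockdown of Atx2, the fly ataxin-2 gene, in brains of male flies that carry no TDP-43 transgene. It rests on 6 of the 12 libraries of the series, chosen by their labels, with n = 3 in each group. Flies of the knockdown group were labelled DaGS-Atx2RNAi (stock BL44012), and flies of the comparison group DaGS-mCherryRNAi (stock BL35785), whose hairpin targets a fluorescent protein that flies lack. Both groups shared the daughterless-GeneSwitch driver, which is active broadly and only when flies eat RU486, and both were fed RU486. Crosses were kept at 25 °C, males were collected 1 to 2 days after eclosion, and brains were dissected once the flies had eaten RU486 for 6 days. The hairpins come from different stocks, so an effect of the hairpin cannot be told apart from any other difference between those stocks, and no group without RU486 was analysed. The other 6 libraries carry the same 2 hairpins and the TDP-43 transgene labelled DaGSTDP(52s). They entered the same model, and so the filter on low counts and the estimate of the spread behind each p-value. Apart from that, they are used only to show where the effect of the hairpin recurred or differed.

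Ataxin-2 is an RNA-binding protein of the cytoplasm that joins poly(A)-binding protein, the translation activator Tyf and decay factors such as Me31B on messenger RNAs. In the fly brain it is known for activating translation of the clock protein Period in pacemaker neurons. Lowering it eases the toxicity of TDP-43 in flies and other models, so its effect in brains without TDP-43 is the baseline for such experiments.

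The table held 17562 genes, of which 10738 passed the filter on low counts and were tested. The 3 mCherry hairpin libraries held 31031857, 29755318 and 39912806 counts, and the 3 Atx2 hairpin libraries 43714499, 29184618 and 36005571. Levels are in CPM, that is, counts relative to the TMM-scaled library total, so they are shares of a library and not amounts of RNA per cell. In bulk tissue, fewer cells of a type and less RNA per cell cannot be told apart. Differences are log2 fold changes of the Atx2 hairpin over the mCherry hairpin ± SE. A gene was called when its p-value from edgeR's quasi-likelihood test, adjusted over all 10738 genes, was below 0.05.

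Markers of neurons and glia, which the brain label calls for, were abundant, and markers of most other tissues were present at lower or more variable levels. The summed level of 6 neuron markers was 6893 to 7357 CPM with the Atx2 hairpin and 7608 to 7925 CPM with the mCherry hairpin, and that of 8 glia markers 4223 to 4295 against 4322 to 4918 CPM. Both sums were lower in every Atx2 hairpin library, and 1 member of each list was called lower, Syn and repo, which are part of these sums. Of all genes tested, 2.93% were called lower, and the groups did not overlap in 25.7%. The sum of 11 photoreceptor markers was 1767 to 5047 CPM with the Atx2 hairpin and 1532 to 2477 CPM with the mCherry hairpin, with no member called and a median of 0.94. Fat body markers summed to 1969 to 2380 against 2102 to 3871 CPM, with Lsp1beta called lower of 10 members. Muscle markers summed to 108 to 166 against 172 to 312 CPM, with Act79B called lower of 10. Hemocyte markers summed to 254 to 463 against 164 to 606 CPM, gut markers to 17.6 to 56.6 against 18.2 to 31.7 CPM and male reproductive tract markers to under 1 CPM in every library, with no member called in any of these lists. The part of these tissues in the results was not tested.

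Atx2 itself (3R, 15408423 to 15417277) was lower in every knockdown library. Its level was 363, 343 and 345 CPM in the mCherry hairpin libraries and 152, 166 and 162 CPM in the Atx2 hairpin libraries. The groups did not overlap, and the 3 knockdown libraries lay close to each other. The mean fell from 350.3 ± 11.4 to 159.8 ± 7.17 CPM (difference -1.13 ± 0.06 with an edgeR adjusted p = 1.33e-06). Of the marker genes that hairpin stocks may carry, none was called, but w was called by 3 of the alternatives. The eye pigment gene w stood at 10.5 and 13.2 CPM with the mCherry and the Atx2 hairpin (difference 0.33 ± 0.09 with an edgeR adjusted p = 0.0522), with no overlap and with an adjusted p of 0.0419 among genes of at least 5 CPM, 0.0135 by the DESeq2 Wald test and 0.0479 without Atx2 hairpin library 1. The eye colour gene v stood at 11.9 and 8.93 CPM (difference -0.41 ± 0.28 with an edgeR adjusted p = 0.464) and the body colour gene y at 15.2 and 23.2 CPM (difference 0.62 ± 0.35 with an edgeR adjusted p = 0.375).

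Of 12 genes tested whose products bind ataxin-2 or share its complexes, 1 was called, beside a background of 6.17% of all genes called in either direction. The called gene was me31B, a translational repressor of RNA granules, at 101, 97.4 and 94.4 CPM with the mCherry hairpin and 111, 108 and 106 CPM with the Atx2 hairpin (difference 0.16 ± 0.04 with an edgeR adjusted p = 0.0266). These groups did not overlap, but the difference was small, and the call was lost without Atx2 hairpin library 1 (edgeR adjusted p = 0.161), 2 (0.124) or 3 (0.102) and without mCherry hairpin library 2 (0.0753) or 3 (0.123). The poly(A)-binding protein gene pAbp stood at 1809.6, 1606 and 1809.8 CPM and 1614, 1519 and 1547 CPM in the same order (difference -0.16 ± 0.05 with an edgeR adjusted p = 0.121). The Tyf gene tyf stood at 234 and 217 CPM with the mCherry and the Atx2 hairpin (difference -0.10 ± 0.06 with an edgeR adjusted p = 0.333), and tral, whose product binds Me31B, at 298 and 291 CPM (difference -0.03 ± 0.04 with an edgeR adjusted p = 0.681). TBPH, the fly gene for TDP-43, stood at 136 and 141 CPM (difference 0.06 ± 0.05 with an edgeR adjusted p = 0.605). AGO1, the microRNA effector gene, stood at 985 and 985 CPM (difference 0.00 ± 0.04 with an edgeR adjusted p = 1). Among 25 further genes of RNA granules and decay, 1 rose and 1 fell (median -0.0011). The transcript localization gene stau fell from 377 ± 7.16 to 321 ± 13.2 CPM (difference -0.23 ± 0.04 with an edgeR adjusted p = 0.00716), and all 3 of its knockdown libraries lay below all 3 of the comparison group.

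**Figure D1:**
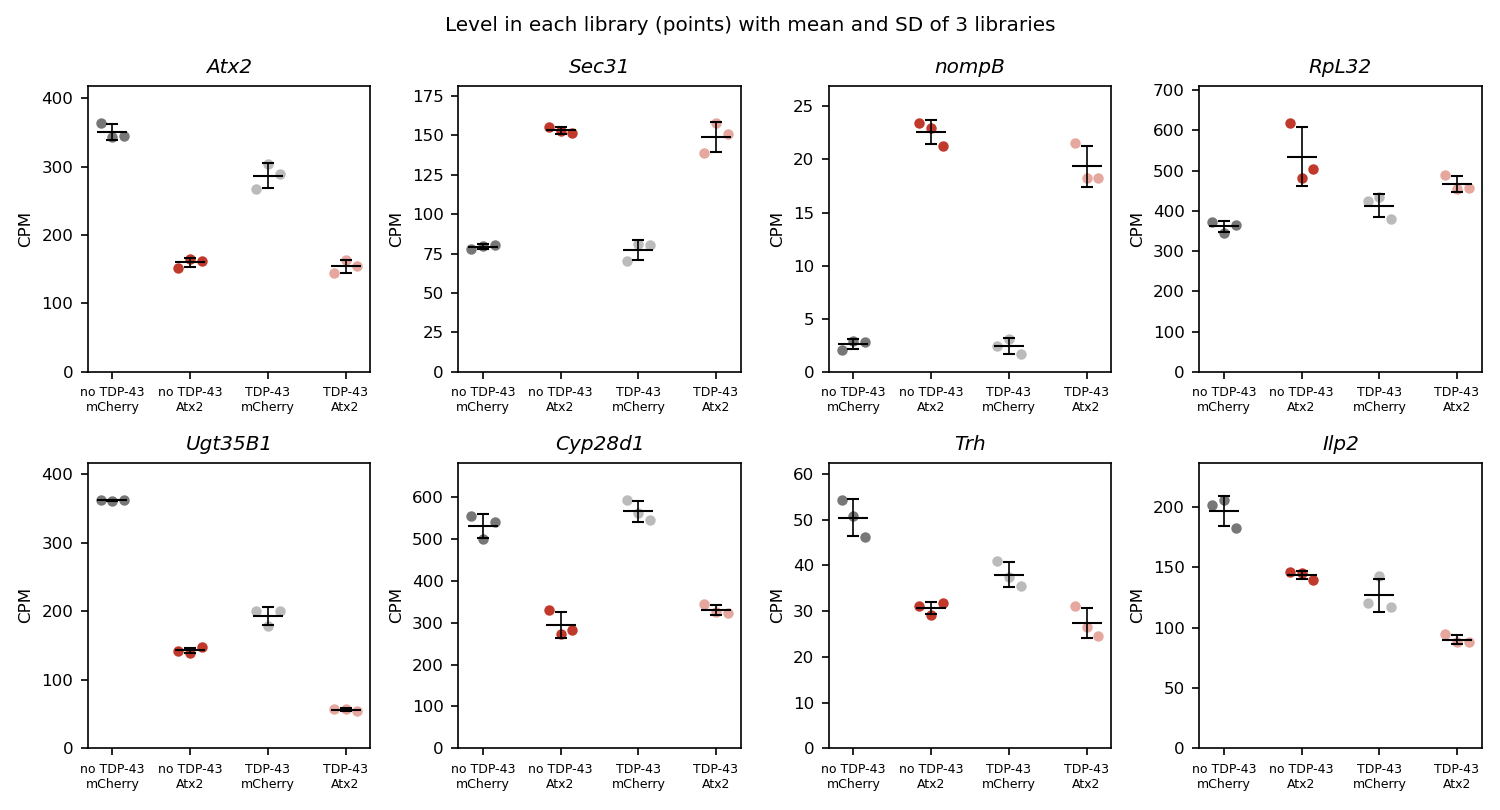
Level of 8 genes in each of the 12 libraries, in CPM on axes that start at 0, by background (no TDP-43 or TDP-43) and hairpin. Points are libraries, and the black bars are the mean and SD of 3. Without TDP-43, Atx2, Ugt35B1, Cyp28d1, Trh and Ilp2 were lower and Sec31, nompB and RpL32 higher in all 3 Atx2 hairpin libraries than in all 3 mCherry hairpin libraries.

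Across all genes, 663 of 10738 were called. The calls were divided about evenly, with 348 genes higher (3.24%) and 315 lower (2.93%) with the Atx2 hairpin. Most changes were small. The median size was 0.38 on the log2 scale among called genes and 0.13 among all genes tested, and 436 of the called genes changed by less than 1.5-fold. A change of more than 2-fold was fitted for 71 genes that rose and 60 that fell, most of them weakly expressed. Where the higher group reached 20 CPM, 440 of 5206 genes were called and only 5 rose and 12 fell more than 2-fold. The libraries of the groups did not overlap in 662 of the called genes, and in 25.7% of all genes tested. The count varied with the libraries used, from 292 without Atx2 hairpin library 1 to 467 without mCherry hairpin library 3. It was 331 without Atx2 hairpin library 3, 398 without mCherry hairpin library 1 and 389 without mCherry hairpin library 2. The genes called with all libraries and with each one left out numbered 236, of which 109 rose and 127 fell.

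**Figure D2:**
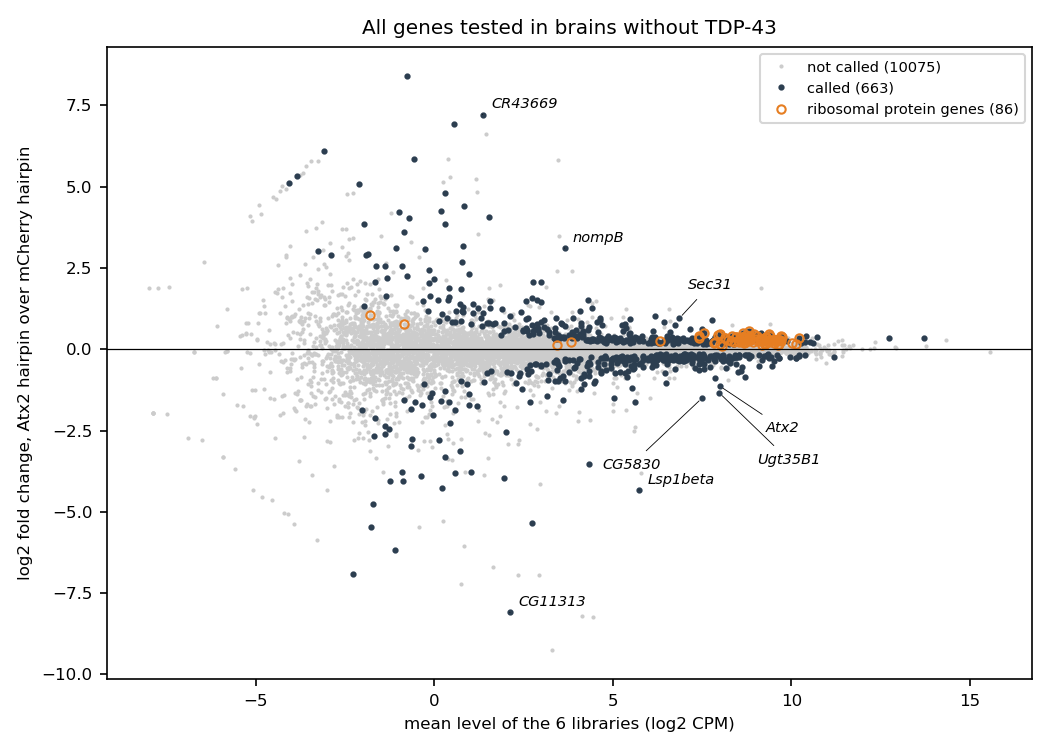
Log2 fold change of the Atx2 hairpin over the mCherry hairpin against the mean level in the 6 libraries without TDP-43 (log2 CPM), one point per gene tested. The 663 called genes are dark and the 86 ribosomal protein genes are ringed. The 10 genes with no count in these 6 libraries are not drawn, and fitted values of genes near 0 counts depend on the fit. Above 20 CPM most called genes lay within a 2-fold change, and every ringed gene lay above 0.

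The broadest pattern was in the genes that encode the ribosome. Of 93 cytoplasmic ribosomal protein genes listed, 86 passed the filter, and of these 43 rose and none fell, where 3.24% of all genes rose and 2.93% fell. All 86 had a positive log2 fold change, from 0.12 to 1.06 with a median of 0.29. The median over all genes tested was 0.0029, and 50.6% of them were positive. The highest values were in weakly expressed genes that were not called and whose groups overlapped. These were RpS10a (0.186 and 0.391 CPM with the mCherry and the Atx2 hairpin, 1.06, edgeR adjusted p = 0.346) and RpS5b (0.412 and 0.705 CPM, 0.77, edgeR adjusted p = 0.281). Among called members the largest value was 0.57, that of RpL32. Large-subunit genes (24 of 50 called, median 0.28) and small-subunit genes (19 of 36 called, median 0.30) both contributed. RpL32, of the large subunit, had 372, 346 and 366 CPM with the mCherry hairpin and 618, 481 and 505 CPM with the Atx2 hairpin (difference 0.57 ± 0.08 with an edgeR adjusted p = 0.00242). RpS24, of the small subunit, had 344, 309 and 352 CPM and 521, 448 and 443 CPM (difference 0.49 ± 0.07 with an edgeR adjusted p = 0.00169). RpS18 had 412, 391 and 434 CPM and 643, 525 and 554 CPM (difference 0.48 ± 0.07 with an edgeR adjusted p = 0.00234), and RpS2 had 547, 523 and 555 CPM and 757, 675 and 675 CPM (difference 0.38 ± 0.06 with an edgeR adjusted p = 0.00278). In each of these 4 genes the groups did not overlap and Atx2 hairpin library 1 was the highest. RpS12 showed the smallest difference, with means of 254 and 275 CPM (0.12, edgeR adjusted p = 0.438).

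The ribosomal rise was uneven across the knockdown libraries. The summed level of these genes was 39637, 36183 and 39734 CPM with the mCherry hairpin and 52624, 43405 and 45761 CPM with the Atx2 hairpin. Every knockdown sum lay above every comparison sum, and Atx2 hairpin library 1 stood apart as the highest. Against the mCherry hairpin mean, the median gene stood at 0.44, 0.17 and 0.25 on the log2 scale in Atx2 hairpin libraries 1, 2 and 3, and 84, 83 and 86 of the 86 genes were above 0. The number of called members was 18 without Atx2 hairpin library 1, 26 without Atx2 hairpin library 3, 28 without mCherry hairpin library 1 and 13 without mCherry hairpin library 2. All 86 genes remained positive in each of these fits, and the median was between 0.20 and 0.33 with any 1 library left out. With only the 6 libraries in the model, 22 members were called.

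Ribosomal protein transcripts are short, and other genes with few exonic bases also leaned higher, to a smaller extent. The 85 ribosomal protein genes with an annotated length had a median of 916 exonic bases. Among other genes at 20 CPM or more, the 349 with under 1 kb of exons had a median log2 fold change of 0.08, and 68.2% of them were positive. The 1137 genes of 1 to 2 kb had a median of 0.01 and the 1886 genes of 2 to 4 kb one of -0.02. Genes of 4 to 8 kb and those over 8 kb each had a median of -0.01, so there was no further fall with length. The ribosomal protein genes under 1 kb had a median of 0.34 and those of 1 to 2 kb one of 0.26. In single libraries, the median of the 349 short genes relative to the mCherry hairpin mean was 0.15, -0.0071 and 0.10 with the Atx2 hairpin and 0.06, -0.07 and -0.0038 with the mCherry hairpin, so the groups overlapped. With TDP-43, the median log2 fold change was -0.02 in the 349 short genes and 0.11 in genes over 8 kb. The part of length in the ribosomal result was not tested.

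**Figure D3:**
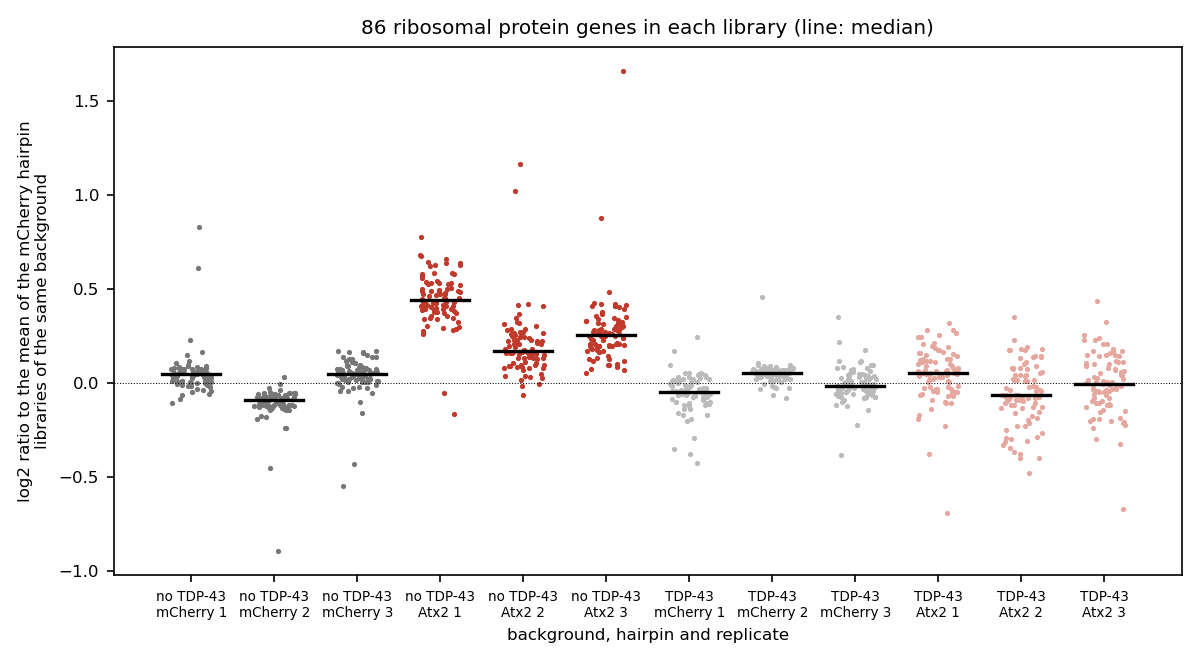
Each of 86 ribosomal protein genes (points) in each library, as the log2 ratio to the mean of the mCherry hairpin libraries of the same background, with the median as a black line. The medians were 0.44, 0.17 and 0.25 in the 3 Atx2 hairpin libraries without TDP-43, and between -0.06 and 0.05 in the 3 with TDP-43.

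Of 37 translation factor genes tested, 10 rose and none fell, where 3.24% of all genes rose. The other 27 were not called, 11 of the 37 had a negative log2 fold change, and the median was 0.11. The eukaryotic initiation factor 3 complex, which loads the small ribosomal subunit onto messenger RNA, gave 8 of these 10 calls out of 13 subunit genes tested, and 12 of the 13 were positive. This complex was singled out after its values were seen. Its subunit gene eIF3l stood at 210.2, 196 and 205 CPM with the mCherry hairpin and 274, 249.8 and 265 CPM with the Atx2 hairpin (difference 0.37 ± 0.06 with an edgeR adjusted p = 0.00267), and eIF3i at 140.5, 132 and 136 CPM and 178, 161 and 162 CPM (difference 0.30 ± 0.05 with an edgeR adjusted p = 0.00673). eIF3h rose from 132 ± 8.92 to 163 ± 9.2 CPM (difference 0.30 ± 0.06 with an edgeR adjusted p = 0.00897) and eIF3e from 84 ± 4.29 to 105 ± 7.49 CPM (difference 0.32 ± 0.06 with an edgeR adjusted p = 0.00835). The groups did not overlap in any of these 4. The other subunits ranged down to eIF3j, with 71.9 ± 2.56 and 68.9 ± 2.76 CPM (-0.06, edgeR adjusted p = 0.538). The count of called factors was 4 without Atx2 hairpin library 1, 5 without Atx2 hairpin library 3 and 5 without mCherry hairpin library 2. None of 27 genes of target of rapamycin signalling, a growth pathway that controls ribosome production, was called (median 0.02). The 2 with the smallest p were unk (difference -0.17 ± 0.05 with an edgeR adjusted p = 0.091) and scyl (difference 0.15 ± 0.07 with an edgeR adjusted p = 0.273).

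Transcripts of the mitochondrial genome stood higher in part. Of 19 tested, 4 rose and none fell, where 3.24% of all genes rose, and the median was 0.32. The small ribosomal RNA mt:srRNA had 149, 133 and 146 CPM with the mCherry hairpin and 248, 208 and 202 CPM with the Atx2 hairpin (difference 0.62 ± 0.10 with an edgeR adjusted p = 0.0051), with no overlap. The polyA kit captures ribosomal RNA only in part, so this level is not that of the mitochondrial ribosome. mt:CoI, a subunit of cytochrome c oxidase, rose from 11826 ± 762 to 14944 ± 1365 CPM (difference 0.34 ± 0.07 with an edgeR adjusted p = 0.0199), but its call was lost without Atx2 hairpin library 1 (edgeR adjusted p = 0.071) and without mCherry hairpin library 1 (0.0684) or 2 (0.0759). The count of called members was 1 without Atx2 hairpin library 1 and 1 without either of those mCherry hairpin libraries, and 2 without Atx2 hairpin library 3. Over the whole mitochondrial genome the groups overlapped, with 80041, 75050 and 88850 CPM against 96302, 78377 and 83027 CPM. Of 72 nuclear genes of the respiratory chain, 4 rose and 2 fell (median 0.12). None of them was called higher without Atx2 hairpin library 1 or 3 or without mCherry hairpin library 2 or 3, where 2, 1, 1 and 2 were called lower. One that fell, COX7AL, had 0.365, 0.435 and 0.433 CPM with the mCherry hairpin and no count in the 3 Atx2 hairpin libraries, where 3 counts correspond to 0.0645 to 0.104 CPM.

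Among named genes at 20 CPM or more that rose, the smallest p-values were those of the following genes. Sec31 (2R, 8893613 to 8898798), which encodes an outer subunit of the COPII coat of vesicles that leave the endoplasmic reticulum, stood at 77.9, 79.5 and 80.7 CPM with the mCherry hairpin and 156, 153 and 151 CPM with the Atx2 hairpin (difference 0.95 ± 0.06 with an edgeR adjusted p = 6.61e-06). Both groups were tight and far apart. nompB (2L, 21578292 to 21589423), an intraflagellar transport gene of ciliated sensory neurons, stood at 2.06, 2.95 and 2.8 CPM and 23.4, 23 and 21.3 CPM (difference 3.11 ± 0.20 with an edgeR adjusted p = 7.55e-06). kek4, which encodes a transmembrane protein of the Kekkon family, rose from 29.9 ± 1.08 to 51.6 ± 1.67 CPM (difference 0.79 ± 0.05 with an edgeR adjusted p = 7.94e-06). ALiX, an adaptor of membrane sorting with the ESCRT machinery, rose from 80.2 ± 6.76 to 136 ± 2.02 CPM (difference 0.76 ± 0.06 with an edgeR adjusted p = 1.88e-05), and HPS4, of lysosome-related organelle trafficking, from 114 ± 6.52 to 174 ± 7.46 CPM (difference 0.61 ± 0.05 with an edgeR adjusted p = 5.14e-05). The photolyase gene phr, which acts in repair of light-induced DNA damage, rose from 30.8 ± 2.37 to 59.1 ± 2.91 CPM (difference 0.94 ± 0.08 with an edgeR adjusted p = 2.86e-05). On 2R it spans 7825289 to 7827319, and its end overlaps that of Prosalpha1 (7827303 to 7828678) on the other strand, a proteasome subunit gene that also rose, from 36.7 ± 0.854 to 51 ± 1.93 CPM (difference 0.48 ± 0.06 with an edgeR adjusted p = 4.43e-04).

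The largest rises among genes at 5 CPM or more were in weakly expressed genes. CR43669, a pseudogene, had 0.0332, 0.067 and 0 CPM with the mCherry hairpin, at or under 3 counts per library, and 4.54, 6.58 and 4.14 CPM with the Atx2 hairpin (edgeR adjusted p = 7.94e-06). Among genes with no named role here, CG43980 rose from 0.325 ± 0.0883 to 5.53 ± 0.521 CPM (difference 4.06 ± 0.65 with an edgeR adjusted p = 0.00566), CG30424 from 3.01 ± 0.233 to 12.8 ± 1.67 CPM (difference 2.08 ± 0.16 with an edgeR adjusted p = 1.57e-05) and CG7054 from 2.62 ± 0.255 to 11.1 ± 0.653 CPM (difference 2.08 ± 0.15 with an edgeR adjusted p = 7.94e-06). CG12256 and CG30384 rose by 1.53 and 1.52 on the log2 scale. In all of these the groups did not overlap.

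Among genes that fell, the smallest p-value belonged to CG5830 (3L, 15992669 to 16004736), at 271, 276 and 257 CPM with the mCherry hairpin and 96.7, 97.2 and 90.6 CPM with the Atx2 hairpin (difference -1.50 ± 0.05 with an edgeR adjusted p = 2.71e-08). Ctr9, a subunit of the Paf1 complex that travels with RNA polymerase II, fell from 205 ± 7.57 to 152 ± 1.43 CPM (difference -0.43 ± 0.04 with an edgeR adjusted p = 6.25e-05). Ir76a, an ionotropic receptor gene of olfactory neurons, fell from 30.3 ± 1.79 to 15.4 ± 0.301 CPM (difference -0.97 ± 0.07 with an edgeR adjusted p = 7.55e-06). The long noncoding RNA cherub, known from neural stem cells, fell from 9.82 ± 0.945 to 3.15 ± 0.264 CPM (difference -1.64 ± 0.13 with an edgeR adjusted p = 2.30e-05). Each of these 4 genes was lower in all 3 Atx2 hairpin libraries.

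Some falls were in genes better known outside the brain. Lsp1beta (2L, 898500 to 901316), which encodes a storage protein of the larval fat body, had 82.7, 65.8 and 156 CPM with the mCherry hairpin and 4.09, 7.1 and 4.03 CPM with the Atx2 hairpin (difference -4.33 ± 0.48 with an edgeR adjusted p = 0.00143). The groups were far apart, but the mCherry hairpin libraries varied more than 2-fold among themselves. The summed fat body markers, which include it, overlapped between the groups, at 1969 to 2380 CPM with the Atx2 hairpin and 2102 to 3871 CPM with the mCherry hairpin. tobi, a target of insulin-like signalling that encodes a glucosidase, stood at 34.5, 21.4 and 55.5 CPM and 2.12, 4.28 and 3.3 CPM (difference -3.53 ± 0.74 with an edgeR adjusted p = 0.0285), a call lost without any 1 of the 3 Atx2 hairpin libraries (edgeR adjusted p = 0.115, 0.0756 and 0.106) and without mCherry hairpin library 1 (0.0643) or 3 (0.0723). CG11313 had 6.17, 3.65 and 16.1 CPM with the mCherry hairpin and at most 0.0348 CPM, under 3 counts, in each Atx2 hairpin library (edgeR adjusted p = 0.0022). Act79B, a muscle actin gene, fell from 54.2 ± 3.17 to 29.7 ± 2.7 CPM (difference -0.87 ± 0.15 with an edgeR adjusted p = 0.00865). The summed muscle markers, which include it, were lower in every Atx2 hairpin library, and the sum without Act79B was not examined. The odorant-binding protein gene Obp99a fell from 3.8 ± 0.316 to 0.272 ± 0.0551 CPM (difference -3.78 ± 0.55 with an edgeR adjusted p = 0.00491). It was the only called member of 28, whose median was -0.93. That is 3.57% called, below the 6.17% of all genes.

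**Figure D4:**
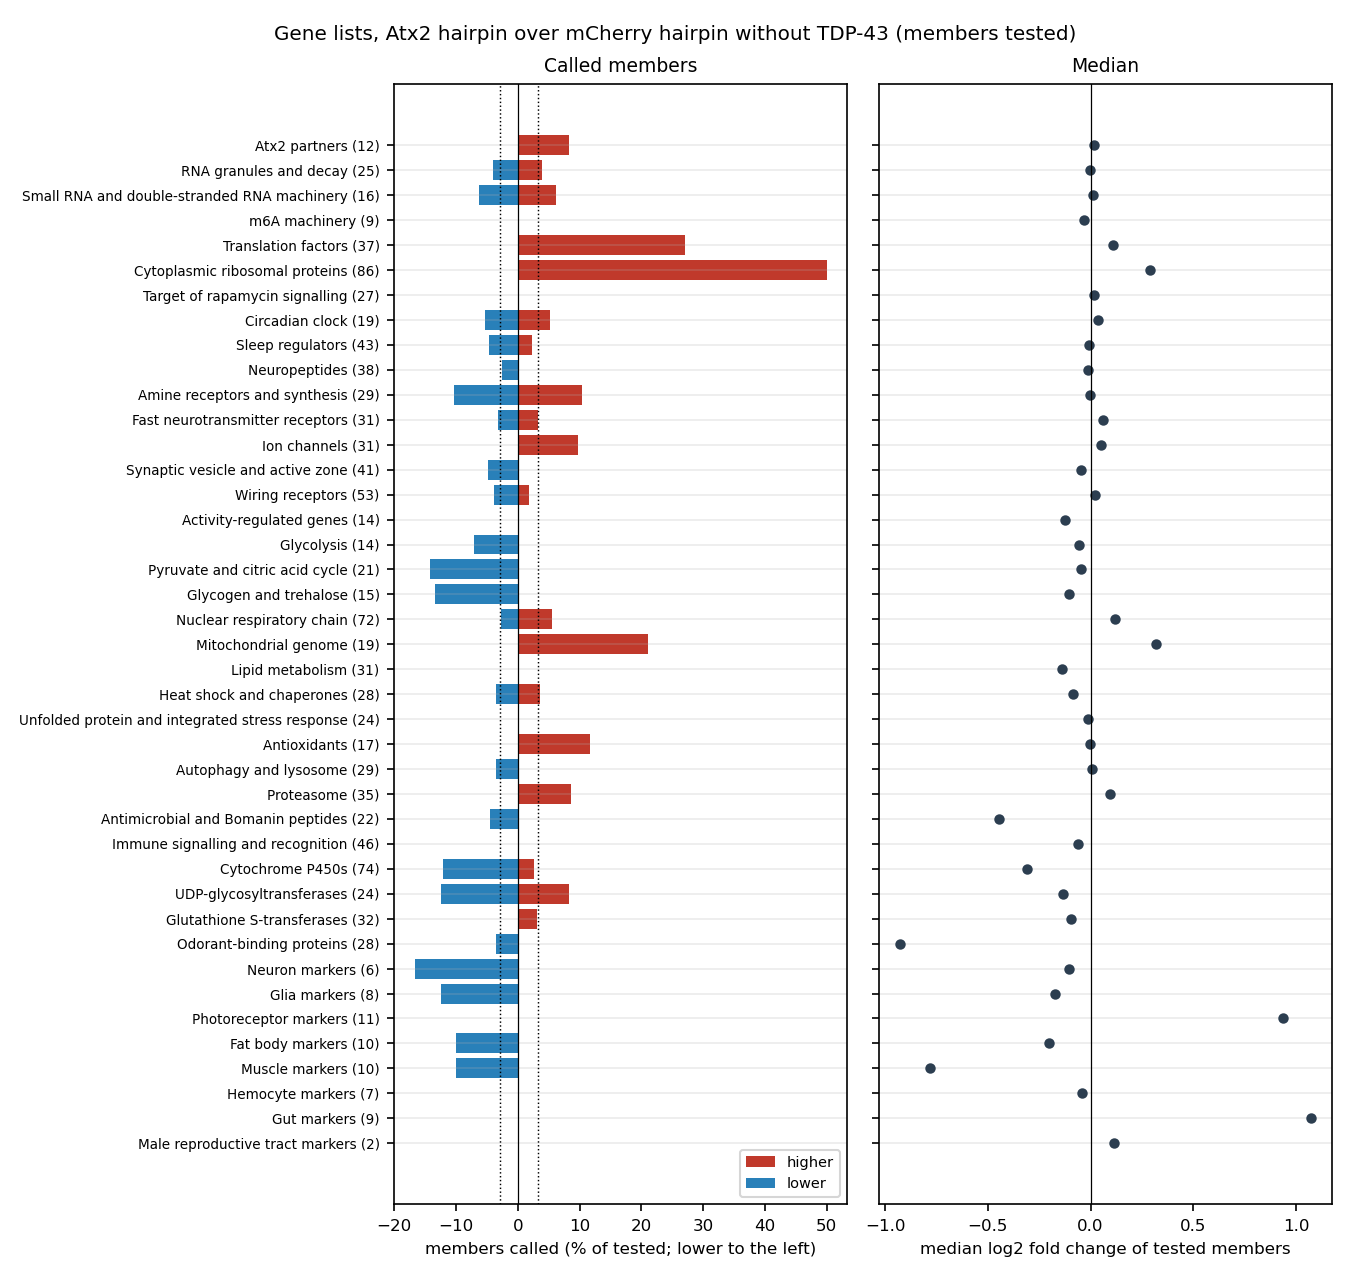
Left, the share of tested members called higher (red, to the right) and lower (blue, to the left) in each of 41 gene lists, with the number tested in brackets and dotted lines at the shares of all genes, 3.24% higher and 2.93% lower. Right, the median log2 fold change of the tested members. Ribosomal proteins (43 of 86) and translation factors (10 of 37) had many members called higher, and cytochrome P450s had 9 of 74 called lower.

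Several detoxification enzymes fell. Of 74 cytochrome P450 genes tested, whose products oxidize foreign compounds and hormones, 9 fell and 2 rose, with a median of -0.31, where 2.93% of all genes fell and 3.24% rose. Cyp28d1 (2L, 5210460 to 5212445) stood at 556, 499 and 540.2 CPM with the mCherry hairpin and 331, 272 and 283 CPM with the Atx2 hairpin (difference -0.85 ± 0.07 with an edgeR adjusted p = 3.44e-05). Cyp12a4, a mitochondrial P450, stood at 69, 55.7 and 69.8 CPM and 30.3, 24.9 and 29.9 CPM (difference -1.19 ± 0.10 with an edgeR adjusted p = 4.29e-05). Neither gene's groups overlapped. Cyp9f3 (from 10.01 ± 0.971 to 19.3 ± 0.708 CPM, difference 0.95 ± 0.09 with an edgeR adjusted p = 8.60e-05) and Cyp4p2 (from 0.344 ± 0.101 to 3.13 ± 0.403 CPM, difference 3.16 ± 0.37 with an edgeR adjusted p = 4.43e-04) went the other way. The number called, 11 in all, was 6 without any 1 of the Atx2 hairpin libraries and 6 without mCherry hairpin library 1 or 3, in each case 4 lower and 2 higher. The median stayed negative in every one of these fits, from -0.12 without mCherry hairpin library 3 to -0.44 without Atx2 hairpin library 1.

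UDP-glycosyltransferases, which add sugars to small molecules for excretion, moved both ways, with 3 of 24 tested lower and 2 higher. That is 20.8%, beside 6.17% of all genes called in either direction. Ugt35B1 (3R, 11168503 to 11170246) was among the most reproducible changes, with 363, 361 and 363 CPM under the mCherry hairpin and 142, 139.8 and 147 CPM under the Atx2 hairpin (difference -1.34 ± 0.05 with an edgeR adjusted p = 3.34e-08). Ugt35A1 fell from 6.56 ± 0.47 to 3.21 ± 0.318 CPM (difference -1.03 ± 0.14 with an edgeR adjusted p = 0.00143) and Ugt36D1 from 24.6 ± 2.1 to 15.5 ± 1.17 CPM (difference -0.67 ± 0.10 with an edgeR adjusted p = 0.00192). Ugt35E2 rose from 3.14 ± 0.502 to 8.84 ± 0.43 CPM (difference 1.49 ± 0.24 with an edgeR adjusted p = 0.00363). Ugt35B1, Ugt35A1, Ugt35E2 and the other member that rose lie next to each other on 3R, between 11164423 and 11172664. Their calls may therefore not be independent. Members of the Ugt35 family are also related in sequence, so counting could divide reads between them. Glutathione S-transferases gave 1 call higher and none lower of 32 (3.12% called, median -0.09).

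Genes of amine signalling were called in both directions, 3 higher and 3 lower of 29 (median -0.0028), or 20.7% beside 6.17% of all genes. Trh, read here by its symbol as the gene of the neuronal enzyme of serotonin synthesis, stood at 54.3, 50.7 and 46.3 CPM with the mCherry hairpin and 31, 29.2 and 31.8 CPM with the Atx2 hairpin (difference -0.72 ± 0.09 with an edgeR adjusted p = 7.79e-04). Its groups were well apart. DAT, the dopamine transporter gene, fell from 40.1 ± 3.37 to 29.9 ± 0.533 CPM (difference -0.42 ± 0.08 with an edgeR adjusted p = 0.00897). Pu, which encodes the first enzyme of the pathway to the cofactor of amine synthesis, had means of 27.1 and 20.8 CPM (-0.38, edgeR adjusted p = 0.0327). The octopamine receptor gene Octbeta3R rose from 98.8 ± 3.1 to 122 ± 3.54 CPM (difference 0.31 ± 0.05 with an edgeR adjusted p = 0.00234). Octbeta1R rose from 159 ± 1.66 to 188 ± 11 CPM (difference 0.25 ± 0.05 with an edgeR adjusted p = 0.00991), a call lost without Atx2 hairpin library 2 (edgeR adjusted p = 0.0665) or 3 (0.0689). Octalpha2R had means of 252 and 283 CPM (0.17, edgeR adjusted p = 0.0346). Called members numbered 3 without Atx2 hairpin library 3.

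Of neuropeptide, clock and sleep genes 2.63%, 10.5% and 6.98% were called, beside 6.17% of all genes. The 1 called of 38 neuropeptide genes was Ilp2, an insulin-like peptide of the brain's insulin-producing cells. It stood at 201, 206 and 182 CPM with the mCherry hairpin and 146, 145 and 139.6 CPM with the Atx2 hairpin (difference -0.45 ± 0.07 with an edgeR adjusted p = 0.00339), without overlap. Of 19 clock genes 1 rose and 1 fell, Pdfr (difference 0.23 ± 0.06 with an edgeR adjusted p = 0.0434) and cry (difference -0.27 ± 0.07 with an edgeR adjusted p = 0.0426). Each of these clock calls was lost in 5 of the 6 fits that left out 1 library, with adjusted p up to 0.171 for Pdfr, without Atx2 hairpin library 1, and 0.146 for cry, without mCherry hairpin library 1. Of 43 sleep genes 1 rose and 2 fell, the latter DAT and SPR, a receptor for sex peptide and myoinhibitory peptides, at 158, 145 and 141 CPM and 110.1, 114 and 126 CPM (difference -0.34 ± 0.06 with an edgeR adjusted p = 0.00659). The SIFamide receptor gene SIFaR rose from 88.7 ± 4.17 to 114 ± 9.96 CPM (difference 0.37 ± 0.07 with an edgeR adjusted p = 0.0111), a call lost without Atx2 hairpin library 1 (edgeR adjusted p = 0.0587).

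In 4 lists of excitability, synapses and wiring, 4.88% to 9.68% of the tested members were called, beside 6.17% of all genes. Of 31 ion channel genes 3 rose and none fell (median 0.05). The potassium channel gene Elk stood at 94.6, 104 and 94.8 CPM with the mCherry hairpin and 118, 128 and 130.2 CPM with the Atx2 hairpin (difference 0.36 ± 0.05 with an edgeR adjusted p = 0.00153), without overlap, and without Atx2 hairpin library 1 or 3 or mCherry hairpin library 1 only 1 channel gene was called. Of 31 receptor genes for fast transmitters 1 rose and 1 fell. The kainate-type glutamate receptor gene Grik rose from 14.3 ± 0.916 to 19.7 ± 0.897 CPM (difference 0.46 ± 0.07 with an edgeR adjusted p = 0.00339). Of 41 genes of synaptic vesicles and active zones 2 fell and none rose (median -0.05). Syn, which encodes the vesicle protein synapsin, fell from 1210.3 ± 39.2 to 1013 ± 20.4 CPM (difference -0.26 ± 0.04 with an edgeR adjusted p = 0.00227), and it is also 1 of the 6 neuron markers whose sum was lower in every Atx2 hairpin library. Among 53 cell surface genes of neuronal wiring, side-VIII fell from 292 ± 10.2 to 236 ± 4.32 CPM (difference -0.31 ± 0.04 with an edgeR adjusted p = 0.00186) and dpr2 from 62.9 ± 3.18 to 47.1 ± 2.85 CPM (difference -0.42 ± 0.07 with an edgeR adjusted p = 0.00339), and 1 gene rose. None of 14 activity-regulated genes was called (median -0.13). Of these, Hr38 stood at 151, 25.1 and 19.6 CPM and 23.2, 15.1 and 14.7 CPM (difference -1.88 ± 0.75 with an edgeR adjusted p = 0.21), where 1 mCherry hairpin library was far above the others.

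In central metabolism some genes fell, with 6.17% of all genes called as the background. In glycogen and trehalose metabolism 2 of 15 genes fell and none rose (median -0.11). Pgm2a, a phosphoglucomutase gene, stood at 52.8, 50.2 and 53.5 CPM with the mCherry hairpin and 42.6, 41.6 and 43.1 CPM with the Atx2 hairpin (difference -0.30 ± 0.05 with an edgeR adjusted p = 0.00278), with no overlap. Of 21 genes of pyruvate use and the citric acid cycle 3 fell and none rose (median -0.05). Among these Pepck2, a phosphoenolpyruvate carboxykinase gene, was weakly expressed and fell from 1.71 ± 0.448 to 0.571 ± 0.0651 CPM (difference -1.58 ± 0.26 with an edgeR adjusted p = 0.00477). Several of these calls were lost when 1 library was left out, whichever group it came from. SdhA and mAcon1 of the citric acid cycle and Treh, the trehalase gene, each lost their call in 5 of the 6 fits that left out 1 library, with edgeR adjusted p up to 0.106 for SdhA, without Atx2 hairpin library 1, and 0.162 for mAcon1 and 0.144 for Treh, without mCherry hairpin library 1. In glycolysis 1 of 14 fell (median -0.06), Ald1, whose call was lost without Atx2 hairpin library 1 (edgeR adjusted p = 0.063) or 2 (0.0546) and without mCherry hairpin library 1 (0.0664). None of 31 lipid genes was called (median -0.14).

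Of 9 lists of stress, protein turnover and immune genes, 0% to 12.5% of the members were called, beside 6.17% of all genes. The heat shock gene Hsp70Bb stood at 182, 161 and 117 CPM with the mCherry hairpin and 324, 261 and 273 CPM with the Atx2 hairpin (difference 0.90 ± 0.16 with an edgeR adjusted p = 0.00978). Its groups did not overlap, but the Hsp70 genes are near-identical copies, so counting could divide reads between them, and its call was lost with only the 6 libraries without TDP-43 in the model (edgeR adjusted p = 0.0752). It was the 1 gene that rose of 28 chaperone genes, and 1 fell, Hsp60A (median -0.09). The call of Hsp60A was lost in each of the 6 fits that left out 1 library, with edgeR adjusted p from 0.0572, without Atx2 hairpin library 3, to 0.127, without mCherry hairpin library 1. Of 29 genes of autophagy and lysosomes 1 was called, ref(2)P, the fly p62 that links cargo to autophagosomes, which fell from 249 ± 6.24 to 204 ± 10.3 CPM (difference -0.29 ± 0.04 with an edgeR adjusted p = 0.00212). In the unfolded protein and integrated stress responses 0 of 24 genes were called by edgeR (median -0.01). The stress kinase gene PEK had the smallest p there (difference 0.16 ± 0.05 with an edgeR adjusted p = 0.0642). Of 17 antioxidant genes 2 rose and none fell, Trx-2 (difference 0.38 ± 0.07 with an edgeR adjusted p = 0.0113) and Sod2 (difference 0.29 ± 0.06 with an edgeR adjusted p = 0.0233). Without Atx2 hairpin library 1 neither was called (edgeR adjusted p = 0.0547 and 0.088), and Sod2 was not called without Atx2 hairpin library 3 (0.116) or mCherry hairpin library 2 (0.073) or 3 (0.0635). Of 35 proteasome genes 3 rose and none fell (median 0.10), Prosalpha1 among them. In each of 4 of the 6 fits that left out 1 library, a single proteasome gene was called. Among antimicrobial peptide genes 1 of 22 fell, AttA (difference -1.73 ± 0.37 with an edgeR adjusted p = 0.0228), but not without Atx2 hairpin library 1 (edgeR adjusted p = 0.0893), 2 (0.0747) or 3 (0.0877) or mCherry hairpin library 1 (0.0734). By edgeR's test 0 of 46 genes of immune signalling and recognition were called (median -0.06). Of 16 genes for small RNAs and double-stranded RNA, the pathway through which hairpins act, 1 rose and 1 fell (median 0.01), and none of 9 genes of RNA methylation on adenosine was called.

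Called genes were unevenly spread over the chromosomes. On the X chromosome 60 of 1791 genes tested were called (3.35%), beside 595 of 8885 on the autosomes (6.7%). The shares on the large autosomal arms were close to each other, with 6.64% on 2L, 7.09% on 2R, 6.54% on 3L and 6.45% on 3R. Of the changes over 2-fold, 126 lay on autosomes and 3 on the X chromosome. Called genes also lay near each other. Another called gene within 10 kb was present for 34.1% of called genes and 23.6% of the others, a distance set after the data were seen. The 1 Mb window with most calls was on 3R from 10642526 to 11642526, where 18 of 117 genes were called, and it holds Ugt35B1 at 11168503. The chromosome into which each hairpin was inserted is not given in the labels, and its part in this spread was not tested.

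The same hairpins in flies with TDP-43 gave a second set of 6 libraries. None was in either group of the comparison above, though all 12 libraries entered 1 model. There 1508 of the 10738 genes were called (14%), and 347 genes were called in both backgrounds, which is 52.3% of the calls without TDP-43 and 23.0% of those with it. Of the 347, 342 changed in the same direction and 5 in opposite directions. Of all 663 genes called without TDP-43, 88.8% had the same sign with TDP-43, against 61.6% of the genes not called. Sec31 (0.95 with TDP-43), kek4 (0.68), Cyp28d1 (-0.78), Ilp2 (-0.49) and ref(2)P (-0.32) were called in both backgrounds in the same direction. Others described above were not called with TDP-43, among them stau (-0.02, edgeR adjusted p = 0.842), Syn (-0.07, 0.243), side-VIII (-0.00, 0.996) and Lsp1beta (-1.35, 0.168). None of these was called different between the backgrounds either (edgeR adjusted p of 0.0704 or more). With TDP-43, Atx2 was lower too (-0.89 ± 0.06, edgeR adjusted p = 5.34e-06), and its effect was not called different between the backgrounds (edgeR adjusted p = 0.211). The test of the difference in hairpin effect called 46 genes (0.428%), 19 of them among the 663.

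With TDP-43 the ribosomal protein genes lay on both sides of 0. There 40 of the 86 had a positive log2 fold change, and 2 were called higher and none lower, where 14% of all genes were called. The summed level was 37250, 39636 and 38140 CPM with the mCherry hairpin and 40201, 37402 and 38912 CPM with the Atx2 hairpin. The groups with TDP-43 overlapped. The difference in effect between the backgrounds was negative for 83 of the 86 genes, with an unadjusted p below 0.05 in edgeR's test for 57. Neither the share of all genes below that unadjusted p nor the share with a negative difference was counted. Both counts therefore stand without a background. After adjustment over all genes edgeR's test called none of the 86, and 0.428% of all genes. RpS2, for example, was at 0.38 without and -0.00 with TDP-43 (difference -0.38 ± 0.08, edgeR adjusted p = 0.0779). Translation factors had a median of 0.11 without and -0.03 with TDP-43, where 8 of 37 were called higher and 2 lower, beside 14% of all genes. Among subunits of initiation factor 3, eIF3l was at 0.37 without and 0.22 with TDP-43 and eIF3f1 at 0.29 and 0.27, while eIF3d1 was at 0.24 and 0.02 and eIF3c at 0.20 and -0.03. None of the 13 subunit genes was called different between the backgrounds, with edgeR adjusted p of 0.217 or more.

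CG5830 had a larger fall without TDP-43 than with it. It was at -1.50 without and -0.25 with TDP-43 (difference 1.25 ± 0.07, edgeR adjusted p = 1.92e-06). Mis12, a kinetochore gene, was at -1.57 and -0.50 (difference 1.06 ± 0.14, edgeR adjusted p = 0.00953). The glial transcription factor gene repo fell from 144 ± 8.36 to 113 ± 7.73 CPM without TDP-43 (difference -0.35 ± 0.07 with an edgeR adjusted p = 0.0108), and with TDP-43 it was higher under the Atx2 hairpin (0.25 ± 0.07, edgeR adjusted p = 0.0277). Its call without TDP-43 was lost without Atx2 hairpin library 1 (edgeR adjusted p = 0.054), and the end of repo overlaps that of CG7156 on the other strand. The antisense RNA gene asRNA:CR45822 stood at 7.56, 9.37 and 9.41 CPM with the mCherry hairpin and 14.3, 14.6 and 16.1 CPM with the Atx2 hairpin without TDP-43. With TDP-43 it had 0.0215, 0 and 0.0284 CPM with the mCherry hairpin, under 3 counts per library, and 8.7, 7.83 and 7.17 CPM with the Atx2 hairpin. The level that differed most between the backgrounds was thus that of the mCherry hairpin, and no fold is given for the TDP-43 libraries.

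**Figure D5:**
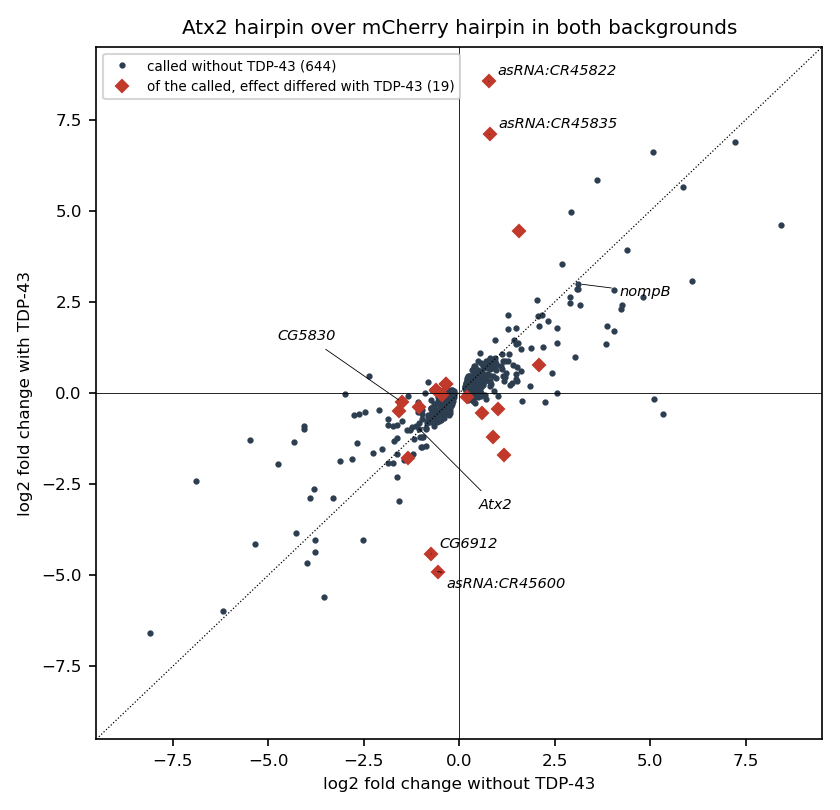
Log2 fold change of the Atx2 hairpin over the mCherry hairpin with TDP-43 (vertical) against that without TDP-43 (horizontal) for the 663 genes called without TDP-43. The dotted line marks equal effects, and diamonds mark the 19 genes whose effect differed. Fitted values of genes near 0 counts depend on the fit. Most points lay in the quadrants of equal sign, which held 88.8% of the genes.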

How the data were processed

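RNA from fly brains was sequenced with a stranded polyA kit as paired reads of 150 bases, with 40 M reads planned per library, per the labels' protocols. The deposited table holds raw counts per gene for 12 libraries, made by the authors. Per the submitters' processing notes, the genome was dm6 and the tools included SAMtools, STAR 2.7.3a, Trim Galore and DESeq2. The counting tool and its use of strand are not given in the sources used here. All 12 columns were matched to samples by name, and 0 columns were left unmapped.

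Counts were fitted in edgeR 4.0.16 (R 4.3.3, limma 3.58.1) with TMM scaling (factors 0.962 to 1.03) and filterByExpr, as 1 model with a mean for each of 4 groups and 8 residual degrees of freedom. All 12 libraries entered the fit so that the groups share 1 estimate of the spread. Robust quasi-likelihood F-tests were adjusted over all 10738 genes by the Benjamini-Hochberg method, and a gene was called below 0.05. The SE was derived from the fold change and the F statistic. The procedure was also run on simulated counts, drawn gene by gene from the mCherry hairpin means without TDP-43 and the estimated spread. Such counts cannot show how the calls respond to an uneven library. Libraries held 29184618 to 45104293 counts. A level at or under 3 counts per library, 0.0645 to 0.104 CPM, was treated as a floor that covers counting error only, and such genes are given without a fold. The labels call the 3 libraries of a group biological replicates. The p-values set the difference between groups against a spread estimated from the replicates of all 4 groups together.

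Of 17562 gene symbols 17495 were matched to the annotation, 648 of them by a RefSeq synonym. Trh was not among the matched, so it has no position here. The table also holds a gene written trh, and Trh was identified by its symbol alone.

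The comparison, its gene lists and the genes described were chosen with earlier results of these data known. A gene could be named if called with groups that do not overlap. Eligible were the 8 largest rises and falls above 5 CPM, the 6 smallest p each way among genes with a proper name above 20 CPM, for each list the called genes with the smallest p (at most 4), the Atx2 partners, TBPH, w, v and y, and the 2 smallest p of a list with no call. Genes with a different effect under TDP-43, RpS5b, RpS10a, RpS12, eIF3c, eIF3d1, eIF3f1, eIF3j, Pu and Octalpha2R were added after their values were seen. Preference went to genes still called after any 1 library was removed, a choice made with the values in view. Some eligible genes are therefore not described. Among them are CG10936, Cyp4e3, Cyp309a1 and Cyp6w1, of the 8 largest falls, whose calls were each lost in several of those fits. Alternatives were DESeq2 1.42.0 and its size factors, other filters on low counts, only the 6 libraries without TDP-43, a replicate block, a threshold of 0.01 and each library left out in turn.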

Additional observations from a re-analysis of the deposited data

Results flagged for a closer look

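Among the genes called without TDP-43, 19 had an effect of the Atx2 hairpin that differed with TDP-43 by edgeR's quasi-likelihood test of the difference, after adjustment over all genes. Values are the log2 fold change with TDP-43 minus that without, unless an adjusted p is named. Of these genes 11 had a smaller effect with TDP-43 and 8 a larger one, and 8 had opposite signs in the backgrounds.

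Effects that shrank or turned toward higher levels were seen for CG5830 (1.25), Mis12 (1.06), CG6356 (0.71), CG6834 (0.65), the TRP channel gene wtrw (0.40), repo (0.60) and asRNA:CR45131 (0.60). Effects that shrank or turned toward lower levels were seen for CG7054 (-1.30), CG16743 (-1.45), the piRNA pathway gene piwi (-2.09), CG8908 (-2.88), the tetraspanin gene Tsp42Ed (-1.14) and SNF4Agamma, a subunit of AMP-activated kinase (-0.30). CG16743 and piwi lie within 10 kb of each other on 2L. Both rose with the Atx2 hairpin without TDP-43, with log2 fold changes of 1.02 and 0.88 there and -0.43 and -1.21 with TDP-43.

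Effects larger with TDP-43 were seen for asRNA:CR44291 (2.89), which rose, and for asRNA:CR45600 (-4.34), CG6912 (-3.69) and Ugt35B1 (-0.44), which fell. asRNA:CR45600 and CG6912 overlap by their ends on the same strand, and asRNA:CR45822 and asRNA:CR45835 lie near each other on 3L, so these may not be independent. The latter pair also rose by more with TDP-43 (edgeR adjusted p of the difference 1.39e-07 for asRNA:CR45822 and 4.15e-08 for asRNA:CR45835). With TDP-43 and the mCherry hairpin both were at or under 3 counts in each library, so no fold is given for them. Counting across overlapping genes was not checked.

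Without TDP-43, several of these calls were lost when 1 library was left out. Without Atx2 hairpin library 1 the edgeR adjusted p was 0.054 for repo, 0.0537 for asRNA:CR45131, 0.0647 for CG8908, 0.135 for Tsp42Ed, 0.0544 for asRNA:CR45822 and 0.0623 for piwi. Without Atx2 hairpin library 2 it was 0.0512 for asRNA:CR45822 and 0.0999 for piwi. Without Atx2 hairpin library 3 it was 0.0568 for SNF4Agamma, 0.0585 for CG8908, 0.0807 for Tsp42Ed, 0.0807 for asRNA:CR45822 and 0.13 for piwi. Without mCherry hairpin library 1 it was 0.0506 for CG8908, 0.0723 for Tsp42Ed and 0.0716 for asRNA:CR45822. Without mCherry hairpin library 2 it was 0.0586 for CG8908, 0.0988 for Tsp42Ed and 0.0759 for piwi. Without mCherry hairpin library 3 it was 0.115 for piwi.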

How the results depend on the processing

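Without TDP-43, 663 genes were called. The count was 664 with DESeq2 size factors, 566 with no filter on low counts, 611 with a mean of at least 5 CPM, 986 with the DESeq2 Wald test, 513 with only the 6 libraries without TDP-43 and 222 at a threshold of 0.01. With 1 library left out it ranged from 292 to 467. With a replicate block it was 712, of which 594 were shared with the 663. Without TDP-43, deviations of same-numbered libraries from their group means correlated at -0.15, -0.10 and -0.33, and no sample correlated best with its own number. The libraries with TDP-43 were not compared in this way. Whether libraries of the same number share some factor was not tested. With TDP-43, 1508 genes were called, and 1252 to 1975 under the alternatives. The difference between the backgrounds called 46 genes, 40 with DESeq2 size factors, 47 with no filter, 533 with the DESeq2 Wald test and 138 with the replicate block. The cause of these differences in count was not tested.

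Of 104 called genes under the naming rule, 64 kept their call with every library left out, and none changed direction under any alternative run. Ribosomal protein genes called higher numbered 43, 66 with the DESeq2 Wald test, 22 with only the 6 libraries and 13 to 54 with 1 library left out. At this depth, levels at or under 3 counts in a library were not resolved.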
